A study of Mus musculus with 4 samples.

Results

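The acid proteases and the proton pump of the lysosome were examined in mBMSCs, mesenchymal stem/progenitor cells grown from mouse bone marrow, with and without ZBP1 depletion. The rule that picks the genes uses their names and no measured value, although earlier results of these data were known when it was written. They are 17 cathepsins (Cts followed by a letter), 13 subunits of the V1 sector and 8 of the V0 sector of the vacuolar proton ATPase (V-ATPase), its accessory proteins Atp6ap1 and Atp6ap2, and the lysosomal membrane proteins Lamp1 and Lamp2. This makes 42 of the 24342 gene symbols with a single row in the deposited table. Ctsk and Atp6v0d2, the cathepsin and the subunit d paralogue best known from osteoclasts, are not among the 42 and are given below for comparison. The cells of both groups came from wild-type mice at 3 months of age, of the strain labelled C57BL/6 (C57BL/6J in the methods of the study), and were grown as adherent primary cultures after non-adherent haematopoietic cells had been washed off. One group was transfected with a scrambled siRNA (siScr, n = 2) and the other with siRNA against ZBP1 (siZBP1, n = 2), both with a lipid reagent and with no other agent named. The labels do not say which ZBP1 siRNA was used or whether replicates came from separate animals or cultures, so that p-values measure only the spread between these samples. Expression is in FPKM (fragment counts scaled by transcript length and by the size of the library), which allows levels of different genes to be set side by side. Read numbers were not given, and no counting error could be attached to a value.

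Cathepsins are proteases that are made as inactive precursors, sorted to endosomes and lysosomes, and activated there at low pH. Most are cysteine proteases, Ctsd and Ctse are aspartic proteases, and Ctsa and Ctsg are serine enzymes. The acid comes from the V-ATPase, a rotary pump in which the peripheral V1 sector hydrolyses ATP and the membrane-embedded V0 sector carries protons. Several subunits exist as paralogues, of which some are widespread and others are restricted to tissues such as kidney, testis or neurons. In bone, the pump and Ctsk are best known for acid and matrix digestion by osteoclasts, and macrophages are rich in lysosomes.

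The targeted gene was lower in both depleted samples, with Zbp1 at 86.0 and 62.0 FPKM in the siScr samples and 11.5 and 11.6 FPKM in the siZBP1 samples (limma log2 fold change -2.56, standard error 0.16, adjusted p = 0.00322). Without siZBP1 replicate 1 or 2 the limma adjusted p was 0.0618 or 0.0511, at a log2 fold change of -2.55 or -2.57. The cultures expressed mesenchymal genes such as Col1a1 and Col1a2, which are the highest of a list of 12. Others of that list were lower, with Pdgfrb and Prrx1 at a mean of 38.4 and 35.3 FPKM over the samples. Pdgfra, Thy1 and Lepr averaged only 2.34, 2.57 and 0.780 FPKM. The cultures also expressed defining macrophage genes. Csf1r, the receptor that macrophages need for survival, was at 467 and 470 FPKM in siScr cells and at 584 and 558 FPKM in siZBP1 cells. Counts of markers stand beside 13.5% higher and 14.8% lower in siZBP1 cells over all genes tested. Among genes with a mean of at least 50 FPKM, 26.2% were higher and 21.9% lower. Of the 24 macrophage markers, 23 were tested, 15 were higher and 0 were lower by limma at an adjusted p under 0.05 (18 higher and 0 lower at an unadjusted p under 0.05), and the median of their log2 fold changes was 0.37. The summed level of this marker list was 10805 to 11971 FPKM in siScr cells and 16319 to 17182 FPKM in siZBP1 cells. Lyz2 made up a large part of this rise, from a mean of 3230 to 5636 FPKM. Mesenchymal markers mostly moved the other way, with 5 of 11 tested lower and 1 higher and a median of -0.46 on the log2 scale. Their summed level was 6041 to 7032 FPKM in siScr cells and 4631 to 4672 FPKM in siZBP1 cells. Col1a1 made up much of this fall, from a mean of 2793 to 1160 FPKM. Col1a2 (1949 to 1820 FPKM) and Vim (1385 to 1407 FPKM), the other large parts of the sum, did not pass the test. The part that the macrophage and mesenchymal markers have in the changes of the lysosomal genes was not tested. In bulk samples a change in the number of cells of a type and a change in RNA per cell cannot be told apart.

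Lysosomal protease and pump genes were mostly higher after ZBP1 depletion, by modest amounts. Of the 42 genes, 7 were at 0 in all samples, 5 more had a mean below 1 FPKM, and 30 were tested. Among the 30, 17 rose and 1 fell, and 12 did not pass the test, at an adjusted p under 0.05 by limma on log2(FPKM + 1). Over all 11956 genes tested, 13.5% were higher and 14.8% were lower. The 30 genes had a median log2 fold change of 0.22, against 0.0044 over all genes tested, and 26 of the 30 values were positive. Most of these genes were strongly expressed, and strongly expressed genes passed the test more often. Among genes with a mean of at least 50 FPKM, 26.2% were higher and 21.9% lower, and of the 25 cathepsin, V-ATPase and Lamp genes at that level 16 were higher and 0 lower (16 and 2 at an unadjusted p under 0.05). The 17 rises and the fall rest on both siZBP1 replicates. Without siZBP1 replicate 1 no gene of the 30 passed the adjusted threshold, with 14 higher and 1 lower at an unadjusted p under 0.05, and without siZBP1 replicate 2 again 0 passed, with 16 higher and 1 lower unadjusted. Without siScr replicate 1 the counts were 10 higher and 1 lower. The same held over all genes tested, of which 22 were higher and 48 lower without siZBP1 replicate 1, and 32 higher and 113 lower without siZBP1 replicate 2. Of the genes of other lists named below, Cxcl12 still passed without either one (limma adjusted p = 0.0460 and 0.0374).

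In size the changes were small. Only Ctsc and Atp6v0e2 were over 1.5-fold higher by the ratio of group means, and 0 of the 30 were over 1.5-fold lower, where 4.23% of the 11856 genes with a mean of at least 1 FPKM and a ratio that could be formed were higher and 8.73% lower by this measure. The count of 2 was 1 without siScr replicate 1 and 1 without siZBP1 replicate 2, and the count of 0 was 1 without siScr replicate 2. Both siZBP1 samples lay above both siScr samples for 22 of the 30 genes and below them for 3, and over all genes tested these shares were 34.7% and 33.7%. The plot of log2 fold changes by class shows all 30 genes with their intervals.

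**Figure D1:**
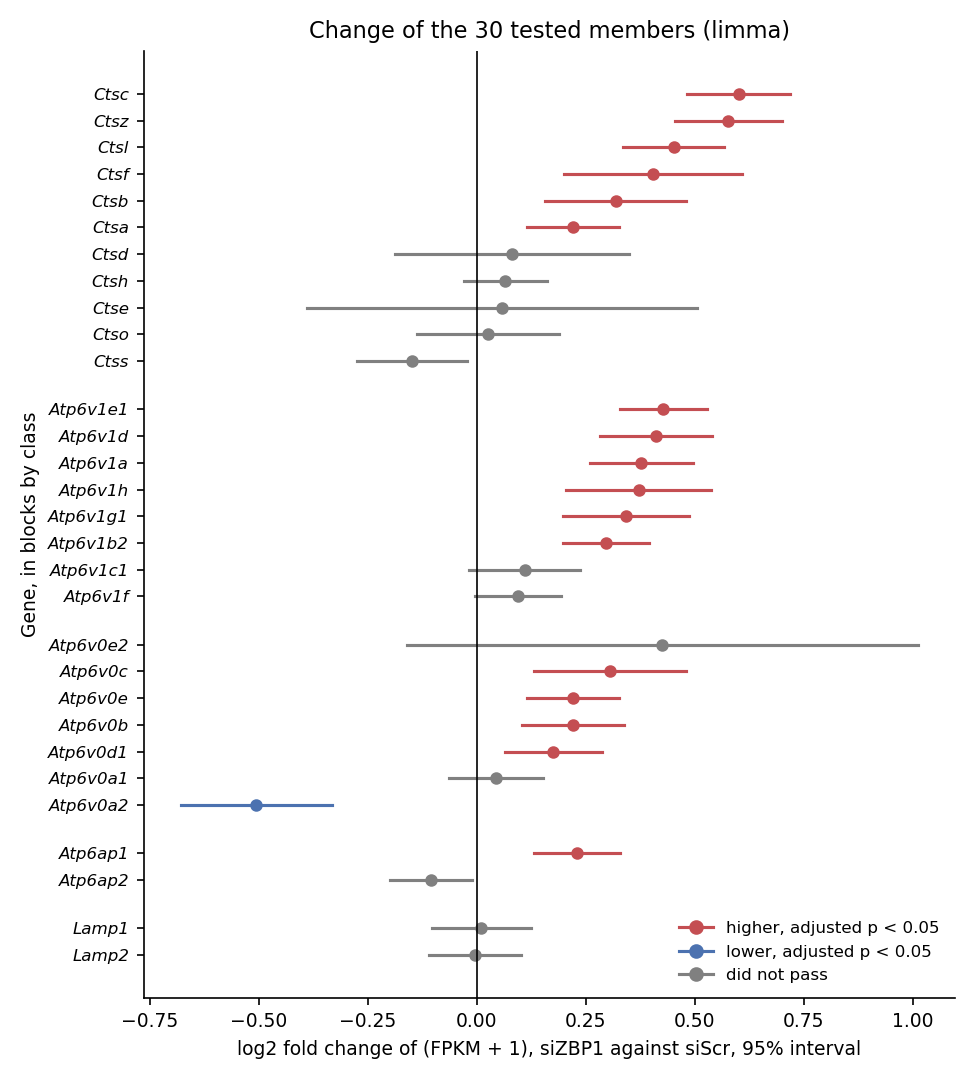
Log2 fold change of FPKM + 1 (horizontal axis, siZBP1 against siScr, n = 2 per group) with its 95% interval from limma for the 30 tested genes (vertical axis), in blocks for cathepsins, V1, V0, accessory and Lamp genes. The 17 genes in red were higher and Atp6v0a2, in blue, was lower at an adjusted p under 0.05, and the 12 grey genes did not pass.

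Among the cathepsins, 6 of 11 tested rose and 0 fell (6 higher and 1 lower at an unadjusted p under 0.05). By the adjusted p, 13.5% of all genes tested were higher and 14.8% lower. At a mean of at least 50 FPKM these shares were 26.2% and 21.9%. The median log2 difference of the cathepsins was 0.22. The rises were those of Ctsc, Ctsz, Ctsl, Ctsf, Ctsb and Ctsa. The most abundant transcript, Ctsd, and Ctss did not pass the test. Together the 17 genes summed to 9963 and 10986 FPKM in siScr cells and 11604 and 11416 FPKM in siZBP1 cells.

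Ctsc encodes a dipeptidyl peptidase that activates granule serine proteases. It was at 135.6 and 132.4 FPKM in siScr cells and at 198.3 and 209.2 FPKM in siZBP1 cells. Its mean was 52.1% higher, the largest rise among the cathepsins tested (limma log2 fold change 0.60, standard error 0.045, adjusted p = 0.00394). Ctsz, a carboxypeptidase, was at 453 and 470 FPKM in siScr cells and at 703 and 675 FPKM in siZBP1 cells. Both depleted samples stood well above both controls, with a mean 49.3% higher (limma log2 fold change 0.58, standard error 0.046, adjusted p = 0.00444).

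Ctsl, a broadly expressed endopeptidase, rose from 407 and 426 FPKM to 564 and 575 FPKM, with no overlap between the groups (36.8% higher, limma log2 fold change 0.45, standard error 0.044, adjusted p = 0.00603). Ctsb, a cysteine protease that also trims peptides from the carboxyl end, was at 1797 and 1947 FPKM in siScr cells and at 2344 and 2320 FPKM in siZBP1 cells. The mean of Ctsb was 24.6% higher (adjusted p = 0.0242 by limma), and it was the cathepsin with the largest gain in absolute level, from 1872 ± 106 to 2332 ± 16.8 FPKM (SD, n = 2 each). Ctsf, a less abundant cysteine protease, was at 18.5 and 19.5 FPKM and rose to 27.1 and 23.9 FPKM. Ctsa, a serine carboxypeptidase that also shields other lysosomal enzymes, was at 264 and 266 FPKM and rose to 314 and 303 FPKM. For both Ctsf and Ctsa the groups were separate, and the limma log2 fold changes were 0.40 (standard error 0.077, adjusted p = 0.0240) and 0.22 (standard error 0.040, adjusted p = 0.0214). Exons of Ctsl overlap an antisense gene over 1742 bp, those of Ctsb overlap Fdft1 over 774 bp and those of Ctsa overlap Pltp and Neurl2 over 495 and 324 bp in the GENCODE M21 annotation, and whether strand was used in counting is not given in the sources used here. Exons of Ctsl also share 395 bp with the processed pseudogene Gm49230 on the same strand.

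Ctsd, the main aspartic protease of lysosomes, was at 4600 and 5472 FPKM in siScr cells and at 5383 and 5229 FPKM in siZBP1 cells. The depleted samples lay between the controls, and the 95% interval of the log2 fold change ran from -0.19 to 0.35 (limma adjusted p = 0.600). Exons of Ctsd also share 808 bp with Gm49369 on the same strand. Ctss, the cysteine protease that processes the invariant chain in antigen-presenting cells, was at 2101 and 2063 FPKM in siScr cells and at 1872 and 1884 FPKM in siZBP1 cells. Both depleted samples were below both controls, with a change of -9.81% in the mean that did not pass (limma adjusted p = 0.0818), and a log2 interval of -0.27 to -0.023. Ctsh, an aminopeptidase, was at 170.3 and 172.5 FPKM and then 180.7 and 178.2 FPKM, and did not pass (adjusted p = 0.246 by limma, interval -0.030 to 0.16).

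Ctso and Ctse were low. Ctso was between 15.7 and 16.9 FPKM over the 4 samples and Ctse between 1.01 and 1.59 FPKM, with overlapping groups for both. Ctsw, a protease of cytotoxic lymphocytes, was at 0.307 to 0.653 FPKM. Ctsg, a protease of neutrophil granules, was listed at 0 in 3 samples and at 0.119 FPKM in siZBP1 replicate 2. Ctsj, Ctsm, Ctsq and Ctsr, cysteine proteases of the rodent placenta, were listed at 0 in all samples.

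**Figure D2:**
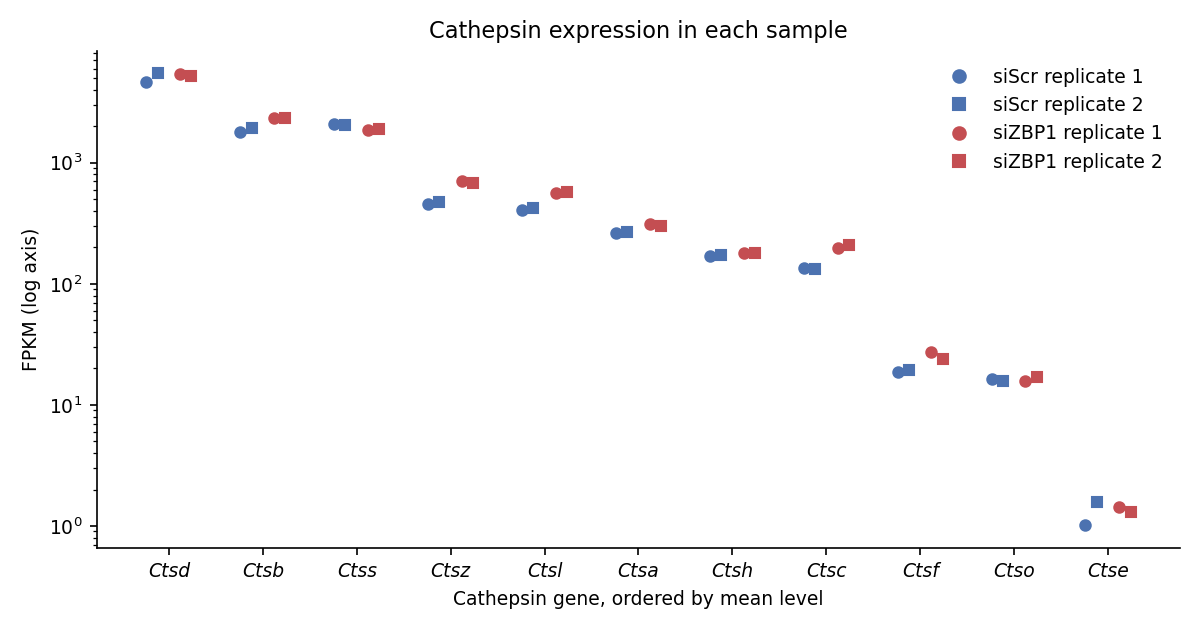
FPKM on a log axis (vertical) of the 11 tested cathepsins (horizontal, ordered by mean level) in each of the 4 samples, blue for siScr and red for siZBP1, circles for replicate 1 and squares for replicate 2. Levels span from about 1 FPKM for Ctse to 5472 FPKM for Ctsd in siScr replicate 2, and the red points of Ctsz, Ctsl and Ctsc stand apart above the blue ones.

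The genes moved unequally, and some shares of the cathepsin transcripts differed between the groups. The share of Ctsb in the summed FPKM of the 17 cathepsins was 18.0% and 17.7% in siScr cells and 20.2% and 20.3% in siZBP1 cells. The share of Ctsz went from 4.54% and 4.28% to 6.06% and 5.91%, and that of Ctss from 21.1% and 18.8% to 16.1% and 16.5%. These shares did not overlap between the groups. The same was true of 8 of the 17 shares in all, higher in siZBP1 cells for Ctsa, Ctsb, Ctsc, Ctsf, Ctsl and Ctsz and lower for Ctsh and Ctss. Ctsj, Ctsm, Ctsq and Ctsr, at 0 in all samples, could not differ. By level, both siZBP1 samples lay above both siScr samples for 34.7% of all genes tested and below them for 33.7%. Separate groups were thus common in these data, and the count of 8 does not set the cathepsins apart. For Ctsh the gap was small, with shares of 1.71% and 1.570% in siScr cells and 1.557% and 1.561% in siZBP1 cells. The FPKM of Ctsh were higher in both siZBP1 samples. Ctsd kept the largest share, 48.0% ± 2.58 in siScr cells and 46.1% ± 0.416 in siZBP1 cells (SD, n = 2 each), and its groups overlapped. A share does not change when a library is multiplied by a single factor, but can change with quantile normalization. Shares were not tested.

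Of the V1 sector, 6 of 8 tested subunits rose and 0 fell (6 and 0 at an unadjusted p under 0.05). By the adjusted p, 13.5% of all genes tested were higher and 14.8% lower. At a mean of at least 50 FPKM these shares were 26.2% and 21.9%. The median log2 difference of the V1 genes was 0.36. All 8 had separate groups with both depleted samples higher, as 34.7% of all genes tested did. The summed level of the 13 V1 genes went from 972 and 1002 FPKM to 1215 and 1229 FPKM.

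Atp6v1a encodes the catalytic subunit A, which hydrolyses ATP. It was at 168.1 and 177.0 FPKM in siScr cells and at 221.4 and 227.3 FPKM in siZBP1 cells (30.1% higher, limma log2 fold change 0.38, standard error 0.045, adjusted p = 0.00884). Its partner in the catalytic ring, subunit B, came from Atp6v1b2 in these cells, at 120.5 and 117.7 FPKM and then 145.7 and 147.1 FPKM (22.9% higher, adjusted p = 0.00983 by limma). The kidney form Atp6v1b1 was listed at 0 in all samples. Both genes of the ATP-hydrolysing ring were thus higher, each with no overlap between groups.

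Of the other V1 subunits, Atp6v1e1, Atp6v1g1, Atp6v1d and Atp6v1h passed the test. Atp6v1e1, a peripheral stalk subunit, had the largest log2 fold change of the V1 genes and was at 128.3 and 126.1 FPKM in siScr cells and 173.4 and 169.4 FPKM in siZBP1 cells (34.8% higher, limma log2 fold change 0.43, standard error 0.038, adjusted p = 0.00511). Its stalk partner Atp6v1g1 was at 176.4 and 191.0 FPKM and rose to 228.5 and 237.2 FPKM (26.8% higher). Atp6v1d, the central rotor shaft, was at 71.9 and 76.7 FPKM and rose to 97.8 and 100.2 FPKM (33.3% higher). Atp6v1h, a regulatory subunit that holds V1 to V0, rose from 65.9 and 72.8 to 92.1 and 87.7 FPKM (29.7% higher). The limma adjusted p-values of Atp6v1g1, Atp6v1d and Atp6v1h were 0.0162, 0.00885 and 0.0185. Exons of Atp6v1h overlap those of Rgs20 on the other strand over 127 bp.

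Atp6v1f and Atp6v1c1 did not pass the test. Atp6v1f, which sits on the central rotor, was at 148.1 and 145.6 FPKM and then 158.2 and 155.5 FPKM (adjusted p = 0.129 by limma, log2 interval -0.0037 to 0.19). Atp6v1c1, a subunit involved in the reversible docking of V1 on V0, was at 92.2 and 93.9 FPKM and then 97.3 and 103.9 FPKM (adjusted p = 0.159 by limma, log2 interval -0.017 to 0.24). Restricted paralogues were near 0, with Atp6v1c2 at 0 to 0.114 FPKM, Atp6v1g2 at 0.703 to 1.10 FPKM, and Atp6v1e2 and Atp6v1g3 listed at 0 in all samples.

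Of the V0 sector, 4 of 7 tested subunits rose and 1 fell, beside 13.5% higher and 14.8% lower over all genes tested. At a mean of at least 50 FPKM these shares were 26.2% and 21.9%. The median of the V0 log2 differences was 0.22. Without the variance trend in limma none of the 4 V0 rises passed (adjusted p = 0.0598 to 0.101), while all 6 V1 rises and the fall did. The summed level of the 8 V0 genes went from 1200 and 1209 FPKM to 1400 and 1445 FPKM. V1 made up 44.8% and 45.3% of the summed V1 and V0 levels in siScr cells and 46.5% and 46.0% in siZBP1 cells, and these shares did not overlap between the groups.

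Atp6v0c encodes the proteolipid that forms most of the rotor ring and was the most abundant subunit transcript. It was at 552 and 569 FPKM in siScr cells and at 657 and 731 FPKM in siZBP1 cells (23.8% higher, limma log2 fold change 0.31, standard error 0.066, adjusted p = 0.0321). The groups were separate, but the depleted samples differed from each other by more than the controls did. The table also lists Atp6v0c-ps2, a pseudogene copy, at 51.4 and 20.6 FPKM in siScr cells and at 100.2 and 17.7 FPKM in siZBP1 cells, so that reads may be divided between the copies and the value of Atp6v0c is uncertain to that extent. Atp6v0b, the other proteolipid of the ring, was at 213.4 and 206.0 FPKM and rose to 249.7 and 239.1 FPKM (16.6% higher, adjusted p = 0.0274 by limma). Exons of Atp6v0b overlap an antisense gene over 243 bp.

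Atp6v0d1, which links the ring to the central stalk, was at 125.0 and 123.4 FPKM and rose to 143.8 and 137.1 FPKM (13.1% higher). It was the rise closest to the threshold (limma log2 fold change 0.18, standard error 0.042, adjusted p = 0.0418), and with the replicate number as a block the adjusted p was 0.0594. Atp6v0e, a small membrane subunit, was at 220.2 and 220.3 FPKM and rose to 261.7 and 251.8 FPKM (adjusted p = 0.0212 by limma). Its paralogue Atp6v0e2 was low, at 0.661 and 1.43 FPKM and then 1.54 and 1.86 FPKM, and did not pass (adjusted p = 0.222 by limma). The mean of Atp6v0e2 was 63.0% higher, from a level at which siScr replicates differed from each other by more than the groups did.

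**Figure D3:**
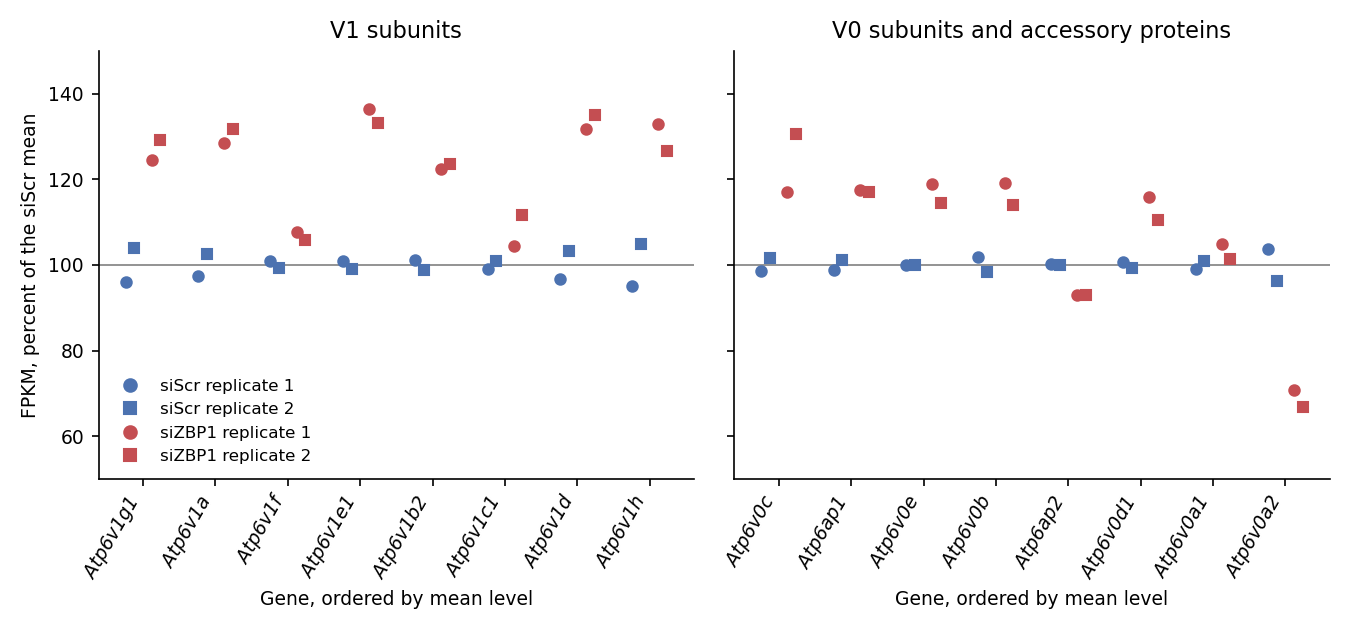
FPKM of each sample as a percent of the siScr mean of the gene (vertical axis) for 8 V1 subunits (left) and for 6 V0 subunits with the accessory proteins (right), ordered by mean level, with blue for siScr and red for siZBP1. Red points lie above the blue ones for every V1 gene, and below them for Atp6ap2 and Atp6v0a2. Atp6v0e2 is left out because its level is near 1 FPKM.

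Subunit a carries protons across the membrane and sets where the pump resides, and its paralogues differed from each other. Atp6v0a2, the form best known from the Golgi and endosomes, was at 18.5 and 17.2 FPKM in siScr cells and at 12.6 and 11.9 FPKM in siZBP1 cells. This was the only fall among the 30 genes, by 31.2% in the mean (limma log2 fold change -0.51, standard error 0.066, adjusted p = 0.0103). Exons of Atp6v0a2 overlap those of an antisense gene over 663 bp. Atp6v0a1 was at 70.2 and 71.5 FPKM and then 74.3 and 71.9 FPKM, and did not pass (adjusted p = 0.469 by limma, log2 interval -0.063 to 0.15). Atp6v0a4, the kidney form, was at 0.292 and 0.112 FPKM and then 0.0582 and 0.0725 FPKM. The most abundant form of subunit a was Tcirg1, the a3 form needed by osteoclasts, whose name is outside the rule. Tcirg1 was at 115.7 and 110.3 FPKM and then 134.0 and 124.6 FPKM (14.4% higher), with both depleted samples above both controls. Its limma adjusted p was 0.0610, and it passed with quantile normalization (0.0446), a replicate block (0.0461) or equal sums (0.0403).

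As a share of the summed FPKM of the a family, Atp6v0a2 took 9.03% and 8.62% in siScr cells and 5.70% and 5.71% in siZBP1 cells. Tcirg1 took 56.5% and 55.4% and then 60.7% and 59.8%. The groups were separate for both of these shares and overlapped for Atp6v0a1, at 35.1% ± 1.14 and 34.1% ± 0.621 (SD, n = 2 each). Subunit d showed a shift of the same kind. Atp6v0d2 was at 52.1 and 51.7 FPKM and rose to 74.0 and 79.8 FPKM (limma log2 fold change 0.56, adjusted p = 0.00543), more than Atp6v0d1, so that the share of Atp6v0d1 in the d family was 70.6% and 70.5% in siScr cells and 66.0% and 63.2% in siZBP1 cells.

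**Figure D4:**
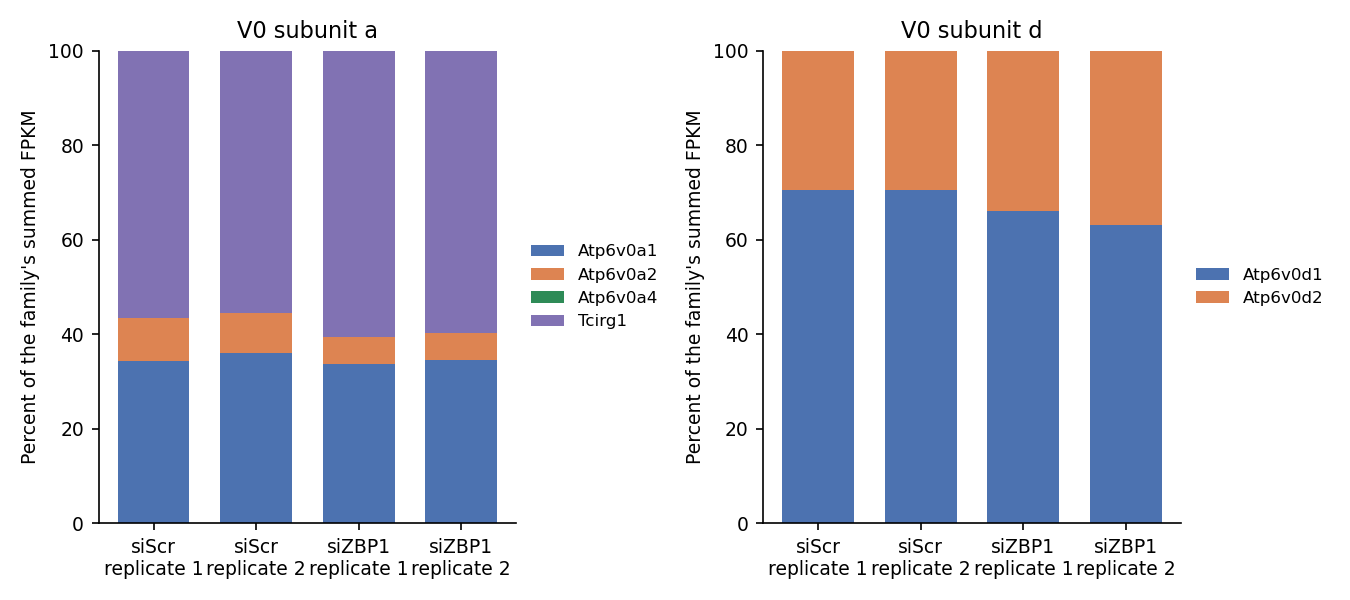
Percent of the summed FPKM of V0 subunit a (left) and subunit d (right) taken by each paralogue (vertical axis, stacked bars) in each of the 4 samples (horizontal axis). The segment of Atp6v0a2 is narrower in both siZBP1 samples (5.70% and 5.71%) than in both siScr samples (9.03% and 8.62%), the segment of Atp6v0d2 is wider, and Atp6v0a4 is too small to be seen.

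The accessory proteins diverged. Atp6ap1, which assists assembly of the pump, was at 232.7 and 238.3 FPKM in siScr cells and rose to 276.9 and 275.9 FPKM in siZBP1 cells (17.3% higher, limma log2 fold change 0.23, standard error 0.037, adjusted p = 0.0169). Atp6ap2, also known as the prorenin receptor, was at 151.6 and 151.2 FPKM and then 140.7 and 140.6 FPKM. Both depleted samples were below both controls, and the difference did not pass (adjusted p = 0.0912 by limma, log2 interval -0.20 to -0.012).

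The Lamp genes, whose products coat the inner face of the lysosomal membrane, gave small differences that did not pass the test. Lamp1 was at 868.0 and 879 FPKM in siScr cells and at 892 and 868.1 FPKM in siZBP1 cells. Lamp2 was at 474 and 489 FPKM and then 482 and 478 FPKM. Groups overlapped for both, the 95% intervals of the log2 fold change were -0.10 to 0.12 for Lamp1 and -0.11 to 0.10 for Lamp2, and the limma adjusted p-values were 0.884 and 0.955. Exons of Lamp1 overlap those of Grtp1 on the other strand over 249 bp, and Ctsz and Atp6v1e1 have such overlaps with Nelfcd and Slc25a18 over 10 and 32 bp. These values depended on the scaling. With quantile normalization the log2 fold change of Lamp1 went from 0.010 to 0.17 (limma adjusted p = 0.0644) and that of Lamp2 from -0.0039 to 0.11.

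Other genes of the lysosome were examined as lists, whose counts stand beside 13.5% higher and 14.8% lower over all genes tested. Of 34 other lysosomal hydrolases and their activators, all tested, 17 were higher and 1 lower, and their median log2 difference was 0.23. The largest rises were those of Galc, which cleaves galactosylceramide (36.0 and 37.0 FPKM, then 54.96 and 56.3 FPKM), the tripeptidyl peptidase Tpp1 (111.8 and 119.2 FPKM, then 176.4 and 169.5 FPKM) and the sialidase Neu1 (17.8 and 18.1 FPKM, then 26.8 and 26.5 FPKM). Their limma adjusted p-values were 0.00373, 0.00499 and 0.00485. Of 21 tested genes for lysosomal membrane proteins and sorting, 8 were higher and 2 lower. Igf2r, a receptor that carries hydrolases with mannose 6-phosphate to lysosomes, fell from 44.2 and 42.0 to 26.2 and 28.0 FPKM (limma log2 fold change -0.65, adjusted p = 0.00503). In the same list the sorting receptor Sort1 rose from 6.67 and 8.11 to 11.5 and 11.7 FPKM, and the membrane protein Laptm4b from 19.3 and 20.2 to 28.4 and 31.5 FPKM.

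Of the V-ATPase genes outside the rule, 11 were tested, 2 were higher and 0 lower (5 and 1 at an unadjusted p under 0.05). By the adjusted p, 13.5% of all genes tested were higher and 14.8% lower. Dmxl2, part of the complex that puts V1 back on V0, rose from 5.63 and 5.33 to 9.15 and 9.13 FPKM (limma log2 fold change 0.65, adjusted p = 0.00733). The other was Atp6v0d2, described above, and Ncoa7, which binds the pump, had the third largest absolute value, -0.31, and did not pass (adjusted p = 0.105 by limma). Of the cystatins, which inhibit cysteine cathepsins, 3 of 8 were tested and 1 was higher. The secreted Cst3 rose from 1057 and 1053 to 1238 and 1207 FPKM (limma log2 fold change 0.21, adjusted p = 0.0292), the cytosolic Cstb was at 425 and 395 and then 372 and 395 FPKM, and Cst7 was at 1.56 and 3.72 and then 3.87 and 3.32 FPKM.

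The MiT/TFE transcription factors, which drive lysosomal genes, were low or moderate in level. Of 21 genes for these factors and for lysosomal regulators of mTORC1, 5 were higher and 0 lower (7 and 0 at an unadjusted p under 0.05). Their median log2 difference was 0.11. Over all genes tested 13.5% were higher and 14.8% lower, and at a mean of at least 50 FPKM 26.2% and 21.9%. Tfec, a family member of macrophages, rose from 2.75 and 3.58 to 7.56 and 6.47 FPKM (limma log2 fold change 0.95, adjusted p = 0.0130), and Mitf from 11.5 and 11.4 to 13.6 and 14.2 FPKM (adjusted p = 0.0349 by limma). The call of Mitf was lost with a replicate block (0.0578) and without the filter (0.0510). Tfeb, at 11.05 and 9.85 and then 13.4 and 11.9 FPKM, and Tfe3, at 33.3 and 33.0 and then 34.7 and 35.7 FPKM, did not pass (limma adjusted p-values 0.112 and 0.228). Among the regulators, Rragd rose from 6.71 and 7.65 to 12.01 and 13.2 FPKM, and Lamtor4 from 32.9 and 34.4 to 41.1 and 43.8 FPKM. Of 17 autophagy genes, 5 were higher and 1 lower, beside the same background of 13.5% and 26.2% higher and 14.8% and 21.9% lower. The 3 largest absolute log2 fold changes were rises, those of Gabarapl2 (0.40), Ulk2 (0.38) and Atg9a (0.35).

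**Figure D5:**
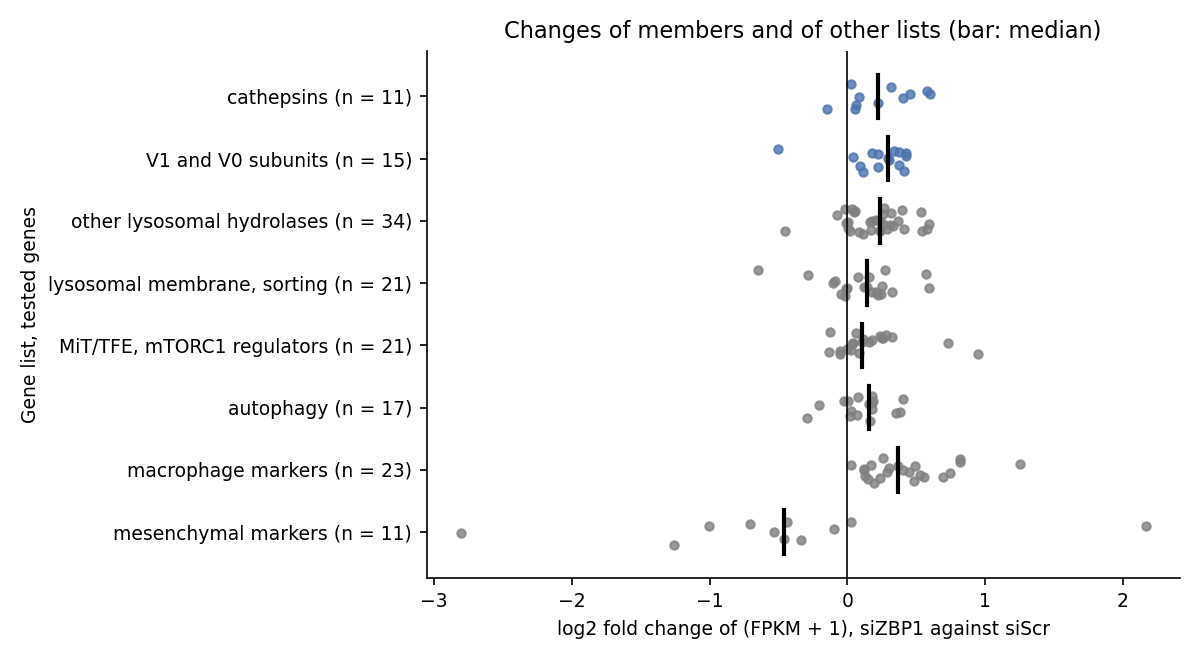
Log2 fold change of FPKM + 1 (horizontal axis, siZBP1 against siScr) of each tested gene, as points, in 8 lists (vertical axis), blue for the cathepsins and the V1 and V0 subunits and grey for other lists, with a black bar at the median of each list. Medians were 0.22 for the cathepsins, 0.30 for the V1 and V0 subunits and 0.23 for other lysosomal hydrolases. They were 0.14 for lysosomal membrane and sorting, 0.11 for MiT/TFE factors and mTORC1 regulators and 0.16 for autophagy. Macrophage markers had 0.37 and mesenchymal markers -0.46, and the median over all genes tested was 0.0044.

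The macrophage markers were uneven among themselves, as the lysosomal genes were. Lyz2 rose from 2814 and 3647 to 5871 and 5402 FPKM, Lyz1 from 423 and 567 to 919 and 815 FPKM and Mrc1 from 36.5 and 48.9 to 101.6 and 102.7 FPKM. Adgre1, which defines tissue macrophages, was at 303 and 279 FPKM and then 313 and 320 FPKM and did not pass (adjusted p = 0.165 by limma). Spi1 and Ptprc also did not pass. Defining osteoclast genes were near 0, with Calcr at 0 to 0.0239 FPKM, Ocstamp at 0.181 to 0.271 FPKM and Dcstamp at 0.178 to 0.610 FPKM, and Ctsk fell from 41.5 and 43.1 to 28.5 and 26.5 FPKM (limma log2 fold change -0.60, adjusted p = 0.00543) next to the 6 rises and 0 falls among the 11 cathepsins tested above. Of that list of 8 osteoclast markers, 3 were tested, with 1 higher (Atp6v0d2), 1 lower (Ctsk) and Acp5 not past the threshold. Neutrophil markers summed to 0.581 to 0.718 FPKM in siScr cells and to 1.29 and 4.70 FPKM in siZBP1 cells, of which S100a8 was the only gene tested, and lymphoid markers to under 1 FPKM in every sample. In the mesenchymal list, the largest changes were those of Cxcl12 (68.4 and 54.6 FPKM, then 8.06 and 7.71 FPKM), Nt5e (2.73 and 5.48 FPKM, then 20.8 and 21.3 FPKM) and Col1a1 (3066 and 2520 FPKM, then 1128 and 1191 FPKM).

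MiT/TFE factors are known to bind an E-box with the core CACGTG, often in the extended palindrome TCACGTGA, near the start sites of lysosomal genes. Promoters are shown to locate these letters beside the expression values. RefSeq promoters on GRCm38.p6, from 250 bases before to 50 bases after the start site, matched 33 of the 42 genes, and Ctsb, Ctse, Ctsh, Ctsw, Atp6v0a2, Atp6v1b2, Atp6v1c1, Atp6v1g1 and Atp6v1h were not matched. The 8 letters, which read the same on both strands and contain the core, occurred in promoters of 5 of the 33 genes, and in 1.12% of all symbols with a promoter (0.974% of all promoters). The core alone occurred in 9 of the 33, against 8.09% of all symbols. Windows around each TCACGTGA follow, 5' to 3' on the gene's strand, with the 8 letters in capitals.

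Atp6v1a, chr16:44139358-44139417, minus strand: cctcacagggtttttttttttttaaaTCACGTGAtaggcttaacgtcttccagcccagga

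Atp6v0d1, chr8:105566050-105566079, minus strand: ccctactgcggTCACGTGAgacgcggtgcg

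Atp6v0e, chr17:26676387-26676416, plus strand: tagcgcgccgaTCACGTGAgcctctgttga

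Ctsa, chr2:164833734-164833772, plus strand: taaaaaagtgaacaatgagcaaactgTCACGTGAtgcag

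Ctsa, chr2:164833766-164833795, plus strand: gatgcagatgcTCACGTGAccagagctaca

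Ctsd, chr7:142387893-142387952, minus strand: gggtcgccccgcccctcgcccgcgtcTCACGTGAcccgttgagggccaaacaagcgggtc

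The genes with the core but no full palindrome were Atp6v0b, Ctsf, Ctsl and Lamp1. Ctsd held a further core outside its palindrome, at chr7:142388067-142388072, which is not shown. Atp6v0b held the core 2 times and Lamp1 4 times before the start site, as shown with each core in capitals.

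Atp6v0b, chr4:117887330-117887376, minus strand: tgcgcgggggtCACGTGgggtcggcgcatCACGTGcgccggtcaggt

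Lamp1, chr8:13159089-13159160, plus strand: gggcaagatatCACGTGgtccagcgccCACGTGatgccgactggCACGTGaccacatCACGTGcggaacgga

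Counts and medians are set beside these letters as a description. Of the 9 genes with the core, all tested, 7 were higher and the median log2 difference was 0.22. Of the 13 tested genes with a matched promoter and no core, 6 were higher, with a median of 0.23. Over all genes tested 13.5% were higher, and 26.2% of those with a mean of at least 50 FPKM. Tested genes without a matched promoter are in neither count, and the difference between the counts was not tested. Lamp1, with 4 cores, had a log2 fold change of 0.010, and Ctsd, with the palindrome, had 0.081. A match is a description of the sequence, and whether any factor binds there was not measured.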

How the data were processed

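RNA-seq of 2 siScr and 2 siZBP1 samples was used. The authors deposited FPKM per gene symbol and sample, and group means that were not used. According to the methods of the study, TruSeq libraries were mapped with Tophat to mm10 and FPKM were extracted with HTSeq, while the submitters' processing notes name TopHat and Cufflinks. Annotation, strand setting and filters are not given in the sources used here. FPKM keep no read numbers, so depth is unknown.

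The 4 rows of duplicated symbols were left out of 24346 rows. Values were taken to log2 after adding a pseudocount of 1. The 11956 genes whose FPKM averaged 1 or more over the samples were fitted in R 4.3.3 by limma 3.58.1, letting the prior variance follow expression. Benjamini-Hochberg adjustment ran over all 11956, and 0.05 was the threshold. A fold change on this scale understates that of low genes. The 1.5-fold counts use group means of FPKM. The fit was tested on simulated data. Positions and exon overlaps came from GENCODE M21 (GRCm38), the coordinates of mm10, and promoters from RefSeq. Python 3.11.15, pandas 2.3.3 and matplotlib 3.10.9 were used.

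Members and lists were chosen with earlier results of these data known. Every tested member is named, with the 3 largest absolute log2 fold changes of each list and 8 further genes (Zbp1, Ctsk, Atp6v0d2, Tcirg1, Tfeb, Tfe3, Mitf and Cst3). The defining markers, the overlapping genes, the pseudogene and the level of 50 FPKM were chosen after values were seen. Alternatives were other pseudocounts, filters and scalings, no variance trend, a replicate block and each sample left out; scaling to equal sums was added after the data were seen.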

Additional observations from a re-analysis of the deposited data

How the results depend on the processing

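Of the 18 calls among the 30 tested genes, all 18 kept their direction and stayed past the threshold with a pseudocount of 0.1 or 0.5, a mean FPKM of at least 5, quantile normalization, size factors or equal sums. Without a filter 15 stayed and without the variance trend 12 (11 higher, against 17). Replicate numbers are shared by the groups, and the labels do not say whether same-numbered samples were paired. Deviations of same-numbered samples correlated at -0.063 across genes, a single value that cannot decide this. With the replicate block 16 genes were higher and 1 lower. With a mean of at least 5 FPKM 2 were lower, Ctss being the second. With a sample left out, which leaves 1 sample assumed to vary like the other group, 0 to 14 genes were higher and 0 to 1 lower (over all genes 22 to 1247 and 48 to 1467), and log2 fold changes of Zbp1 were -2.79 to -2.33, with adjusted p-values of 0.0618 and 0.0511 without siZBP1 replicate 1 and 2 (limma). Over 1.5-fold, 1 to 3 were higher and 0 to 1 lower with a sample left out, 1 was higher with a mean of at least 5 FPKM or with 1 added to the means, and 2 were lower without a filter. Sign changes among the named genes occurred in genes not past the threshold with all samples, of which Ctsd and Cst7 passed without siScr replicate 2 (adjusted p = 0.0479 and 0.0347 by limma): Ctsd was -0.065 and Lamp2 0.11 with quantile normalization, Lamp2 was 0.0081 with equal sums, and with a sample left out Ctsd ranged from -0.045 to 0.21, Ctse from -0.12 to 0.24, Ctso from -0.020 (and -0.0041) to 0.072, Lamp1 from -0.0091 to 0.029, Lamp2 from -0.026 to 0.018 (and 0.0014) and Cst7 from -0.042 to 0.84. The cause of these changes was not tested. Without read numbers, the precision of low genes such as Ctse and Atp6v0e2 is unknown.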
